A study of Homo sapiens with 16 samples.

Results

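The binding landscapes of p53 and CTCF were set side by side in G12V cells, which are MCF10A, an immortalised but non-transformed line of human mammary epithelium, transduced with lentivirus carrying the G12V form of the HRAS oncogene (H-RAS Gv12 in the labels) and selected as a population in hygromycin. Both factors were mapped by chromatin immunoprecipitation and sequencing (ChIP-seq) in 2 replicates, and the cells of the p53 samples alone had received Nutlin, which stabilises p53, before fixation. Per the study's methods the CTCF and p53 chromatin was also lysed, sonicated and washed by different protocols, so factor, antibody, Nutlin and chromatin preparation changed together and their parts cannot be told apart. A peak was kept when it overlapped a peak of the other replicate of its factor by at least 1 bp. Of 42778 peaks in the 4 lists (76863 in the 8 lists of the series), 24357 were kept. These merged into 473 p53 sites and 11686 CTCF sites. The lists hold no expression, so neither the labelled cell type nor the transgene could be checked against marker genes.

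As background, p53 is a tetrameric transcription factor that is held at low levels by MDM2 and, once stabilised, binds a response element of a pair of adjacent decamer half-sites and activates genes of cell cycle arrest, apoptosis and DNA repair. CTCF is a zinc-finger protein that is bound in most cells to a long, oriented motif. Together with cohesin it forms the anchors of chromatin loops and the borders of topological domains, where the loops favour a pair of motifs that point towards each other.

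The 4 lists were unequal. CTCF replicates 1 and 2 held 12004 and 27678 peaks, of which 11722 (97.7%) and 11689 (42.2%) were kept. p53 replicates 1 and 2 held 477 and 2619 peaks, of which 473 (99.2%) and 473 (18.1%) were kept, so the set of p53 sites was bounded by the shortest list. That list, p53 replicate 1, came from the library with the lowest depth and carries the word "old" in its peak names. The depth at which peaks were called, estimated from the lists, was 13.5 and 10.7 M reads (units of 1e6) for CTCF and 9.26 and 23.9 M reads for p53, replicate 1 first. Of the 477 strongest peaks of p53 replicate 2, 73.6% were kept. The kept peaks of both replicates are largely the same positions by construction, so the spread between replicates of any measure of position understates the biological spread. With 2 libraries per factor the exact permutation test over the 6 assignments of libraries to factors cannot give a p below 0.333, or 0.433 after adjustment (Benjamini-Hochberg) over the 13 measures compared.

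Sequences under the strongest sites show the motif of each factor where a match was found. All 10 of the strongest p53 sites and 5 of the 10 strongest CTCF sites held one. Strength was the rank of a peak by −log10 q within its list, summed over both replicates. The stretches below come from the 10 strongest sites of each factor and hold the best match to the motif of the factor, in capitals, with its flanks. They are written 5′ to 3′ on the strand named, from the hg19 (GRCh37) reference. The p53 sites were near IER5, an immediate-early response gene, PLXDC1, a plexin-domain receptor, MDM2, and MAP2K6, a kinase that activates p38, with 0, 0, 2 and 3 mismatches to the consensus. The CTCF sites were near FMN2, an actin-nucleating formin, PAK6, a serine/threonine kinase, TMEM141, a transmembrane protein, and ENAH, an actin regulator, with 0, 0, 0 and 1 mismatches.
IER5 (p53, chr1:181104258-181104317, plus strand): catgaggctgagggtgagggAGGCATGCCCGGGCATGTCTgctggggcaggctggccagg
PLXDC1 (p53, chr17:37203099-37203158, plus strand): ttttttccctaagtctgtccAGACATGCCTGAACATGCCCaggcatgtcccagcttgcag
MDM2 (p53, chr12:69202683-69202742, plus strand): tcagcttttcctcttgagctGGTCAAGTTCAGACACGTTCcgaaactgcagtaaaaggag
MAP2K6 (p53, chr17:67603490-67603549, plus strand): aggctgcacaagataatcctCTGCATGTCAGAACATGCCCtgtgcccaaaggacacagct
FMN2 (CTCF, chr1:240139819-240139870, minus strand): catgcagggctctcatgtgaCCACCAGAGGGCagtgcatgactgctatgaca
PAK6 (CTCF, chr15:40567025-40567076, minus strand): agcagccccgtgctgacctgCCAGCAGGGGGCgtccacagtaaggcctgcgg
TMEM141 (CTCF, chr9:139686274-139686325, plus strand): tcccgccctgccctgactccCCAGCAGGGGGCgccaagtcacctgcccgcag
ENAH (CTCF, chr1:225662772-225662823, plus strand): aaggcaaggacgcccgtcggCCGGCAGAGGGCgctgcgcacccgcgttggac

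Each p53 stretch holds a pair of half-sites with a C and a G at the core of each, while the CTCF stretches share a single core that ends in GGC. The stretches were chosen for these matches, so they are illustrations and no test. The p53 motif was sought as a pair of adjacent p53 half-sites (the decamer consensus) in which no mismatch was allowed at the core C and G of either decamer and up to 3 elsewhere. For CTCF the 12-base core of its consensus was sought on both strands with up to 1 mismatch. A match in the 150 bp around the summit was counted, and it is a description of the letters and not of binding.

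The own motif, as sought here, was more frequent at p53 than at CTCF peaks. It was found at 78.0% and 86.0% of the peaks of p53 replicates 1 and 2 and at 59.4% and 63.8% of those of CTCF replicates 1 and 2. The libraries of the factors did not overlap, with means of 82.0% ± 5.68 and 61.6% ± 3.06 (SD, n = 2; exact two-sided permutation test, p = 0.333, adjusted p = 0.433). The difference was 20.4 percentage points, and 8.36 when p53 replicate 1 was left out. Leaving out a replicate, here and below, also dropped the overlap rule for its factor. The other replicate of that factor then entered with its whole list. In windows of that length over the whole genome the p53 motif occurred in 0.605% and the CTCF motif in 0.745%, and in windows 2 kb beside the summits it occurred in 0.423% for p53 and in 1.34% and 1.39% for CTCF. The motifs differ in length and in the mismatches allowed, so the shares are not on one scale. The size of the difference depended on that allowance. With 1 mismatch fewer for each motif the means were 69.3% and 22.5%, a difference of 46.8 percentage points. The motif of the other factor was rare. The p53 motif was at 0.572% and 0.607% of CTCF peaks, near its genome share. The CTCF motif was at 1.69% and 1.06% of p53 peaks, 8 and 5 of 473, above its genome share and above the 0.529% in the windows beside p53 summits. The exact 95% intervals, 0.733 to 3.31 and 0.344 to 2.45, both hold the genome share, and the first lies above the share beside the summits.

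Among the 473 merged p53 sites, 99 held the motif without a mismatch, 146 with 1, 101 with 2 and 61 with 3, and 66 held none. The sites without a mismatch had the highest fold enrichment, with medians of 11.2 in replicate 1 and 25.8 in replicate 2, against 8.18 and 19.5 at the sites with no motif. The sites with no motif lay at a promoter in 24.2% of cases and those without a mismatch in 4.04%. CTCF showed a smaller step in fold, with medians of 7.41 and 14.3 for 2722 sites without a mismatch and of 7.02 and 12.3 for 4243 sites with no motif. Summits lay at a median of 20.5 and 9.5 bp from the centre of the motif in the p53 libraries and of 28.5 and 19.5 bp in the CTCF libraries, and these ranges overlapped.

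The motif of AP-1, the FOS and JUN dimers that act downstream of RAS signalling, was sought as TGACTCA or TGAGTCA without mismatch. It was found at 7.82% and 8.67% of p53 peaks and at 1.75% and 1.69% of CTCF peaks. It occurred in 2.28% of genome windows and in 2.75% and 2.85% of the windows beside p53 summits. It was thus more frequent at the p53 sites than around them, and at CTCF sites slightly less frequent than in the genome. No test of its own was made for this motif.

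The GC content of the 150 bp around the summit was lower at p53 than at CTCF peaks. It was 51.2% and 51.1% in the p53 libraries and 57.3% in both CTCF libraries, against 40.9% in the genome. The difference of the means was -6.14 percentage points (exact two-sided permutation test, p = 0.333, adjusted p = 0.433), and it was -2.84 without CTCF replicate 1. In the windows 2 kb away the values were 43.2% and 43.4% for p53 and 47.1% for both CTCF libraries, so the surroundings of the sites differed in the same direction. Outside promoters the sites themselves had 50.2% and 56%.

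p53 peaks spread over a broader range of widths than CTCF peaks, but the typical width of the factors could not be separated from that of the libraries. The median width was 381 and 537 bp in p53 replicates 1 and 2 and 265 and 407 bp in CTCF replicates 1 and 2. The middle 50% of widths ran from 320 to 461 and from 431 to 640 bp for p53 and from 228 to 317 and from 364 to 451 bp for CTCF. The ranges of the medians overlapped, since the narrower p53 library lay below the wider CTCF library. The means were 459 bp ± 110 and 336 bp ± 100 (SD, n = 2; exact two-sided permutation test, p = 0.667, adjusted p = 0.667). The narrowest peak of each list, which is the fragment length that the caller assumed, was 279 and 180 bp for p53 and 201 and 223 bp for CTCF. The width above that minimum was 102 and 357 bp for p53 and 64.0 and 184 bp for CTCF, again with overlapping ranges (adjusted p = 0.667, exact permutation test). Without p53 replicate 1 the whole list of p53 replicate 2, with a median width of 316 bp, entered against the kept CTCF peaks. The difference in median width was then -20.0 bp. Without p53 replicate 2 the whole list of p53 replicate 1 entered, and the difference in width above the minimum was -23.0 bp.

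**Figure D1:**
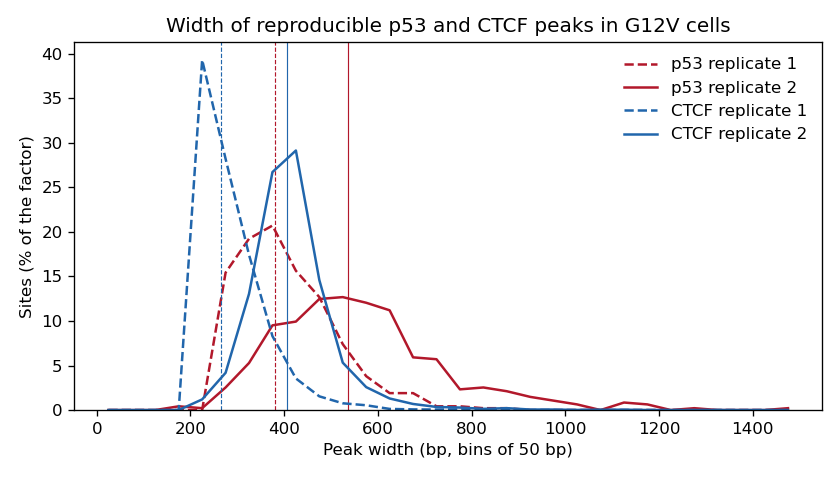
Width of the peaks at reproducible p53 (red) and CTCF (blue) sites in each G12V library, as the share of sites (%) per 50 bp of width (bp), with replicate 1 dashed and replicate 2 solid. Thin vertical lines mark the medians of 381 and 537 bp for p53 and 265 and 407 bp for CTCF, and the replicates of a factor lie further apart than p53 replicate 1 and CTCF replicate 2.

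Within a site the replicates differed in the same way for both factors. The peak of replicate 2 was the wider at 422 of 473 p53 sites (89.2%) and at 11145 of 11686 CTCF sites (95.4%), and its fold enrichment was the higher at 95.3% and 89.2%. Width rose with fold enrichment more closely at p53 peaks (Spearman coefficients across peaks of 0.71 and 0.57, n = 473 each) than at CTCF peaks (0.42 and 0.43, n = 11722 and 11689). The ranks of the sites in the 2 replicates correlated with 0.74 for p53 and 0.43 for CTCF (Spearman, n = 473 and 11686). Peaks of a library share its depth and background, so these coefficients are descriptions without a test. Summits of the replicates were a median of 23 bp apart for p53 and 26 bp for CTCF.

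p53 sites lay further from transcription start sites (TSSs) than CTCF sites. The median distance from the summit to the closest protein-coding TSS was 21188 and 21171 bp in the p53 libraries and 11255.5 and 11262 bp in the CTCF libraries. The p53 distance was 1.88 times the CTCF distance (difference 9921 bp, exact two-sided permutation test, p = 0.333, adjusted p = 0.433). The size of the difference depended on the annotation. With all annotated genes the p53 and CTCF means were 7631.5 and 5331.75 bp, a difference of 2300 bp. With 1 TSS per protein-coding gene the difference was 16973 bp. Of 4 ranges of distance the shares differed most beyond 100 kb, where 110 of 473 p53 sites lay (23.3%, exact 95% interval 19.5 to 27.3) and 1363 of 11686 CTCF sites (11.7%, 11.1 to 12.3). Within 1 kb the shares were 12.3% (9.44 to 15.6) and 16.6% (16 to 17.3), from 1 to 10 kb 24.7% and 30.8%, and from 10 to 100 kb 39.7% and 40.9%. These intervals cover counting error alone, over sites and not over cultures. Close to genes neither factor was strongly one-sided: of the sites within 10 kb, 57.1% of p53 (49.5 to 64.6) and 54.6% of CTCF (53.2 to 55.9) were upstream of the TSS.

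**Figure D2:**
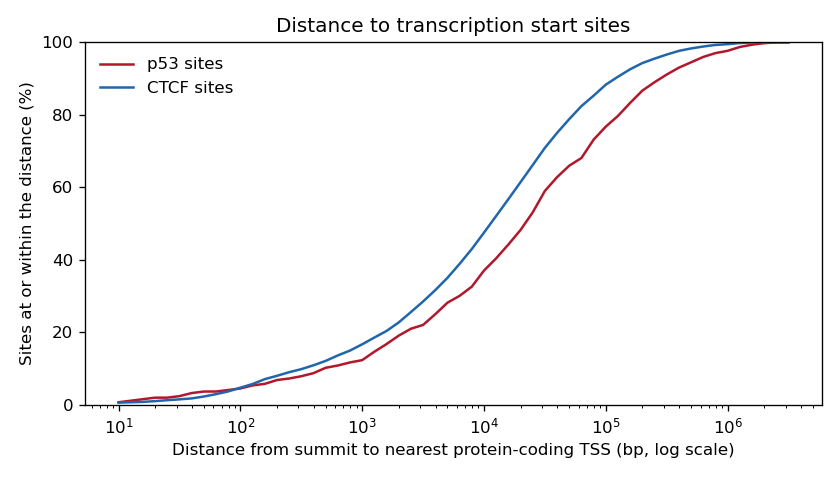
Cumulative share (%) of p53 (red) and CTCF (blue) sites in G12V cells at or within a given distance (bp, log scale) of the nearest protein-coding TSS. The curves run together at the shortest distances and then part, with 48.2% of p53 and 61.4% of CTCF sites within 19953 bp and 76.7% and 88.3% within 100 kb.

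Both factors were more frequent at promoters than the genome, and CTCF more than p53. A promoter was taken from 1000 bp upstream to 500 bp downstream of a protein-coding TSS, which covers 3.48% of the genome. It held 11.2% of the peaks in both p53 libraries and 14.8% and 14.7% of those in the CTCF libraries. Exons outside promoters, 2.78% of the genome, held 1.69% and 1.90% of p53 peaks and 5.72% and 5.65% of CTCF peaks. Exons were thus above the genome share for CTCF. The p53 exon shares were lower in value but rest on 9 merged sites. The exact binomial interval of the share of these sites, 0.874 to 3.58%, holds the genome share. A p53 exon share below that of the genome is therefore not shown. Introns held 35.1% and 34.9% of p53 and 33.2% and 33.3% of CTCF peaks, against 39.8% of the genome. The remainder was intergenic, at 52.0% for both p53 libraries and 46.3% and 46.4% for CTCF, against 53.9%. For each of these 4 shares the libraries of the factors did not overlap (exact two-sided permutation test, p = 0.333, adjusted p = 0.433). The difference in intron share was 1.75 percentage points, and it became -0.49 without CTCF replicate 1 and 6.17 without p53 replicate 1. Leaving out CTCF replicate 1 moved the difference in promoter share from -3.53 to -1.47 percentage points, and leaving out p53 replicate 1 moved it to -5.42. Leaving out p53 replicate 1 also moved the difference in intergenic share from 5.66 to 2.80 percentage points.

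**Figure D3:**
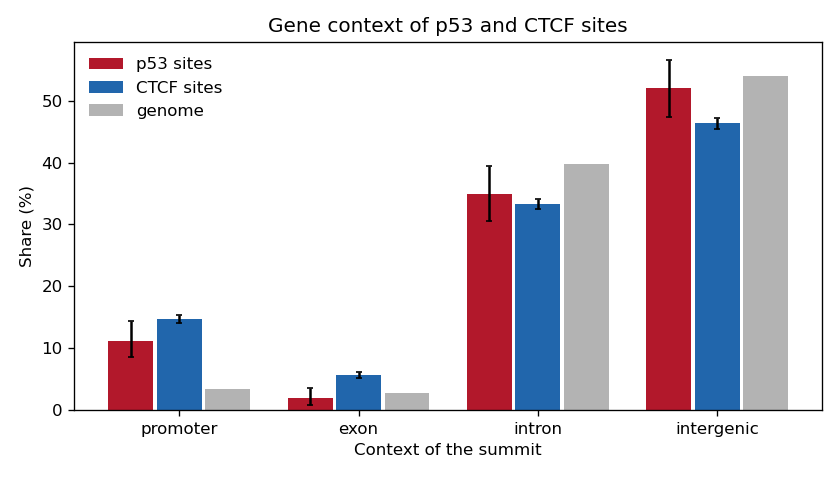
Share (%) of p53 (red) and CTCF (blue) sites in G12V cells by the context of the summit, with exact 95% binomial intervals over sites, beside the share of the genome (grey). Promoters hold 11.2% of p53 and 14.7% of CTCF sites against 3.48% of the genome, and exons hold 1.90% and 5.66% against 2.78%.

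The p53 sites at promoters differed from the distal ones. The 53 promoter sites had the motif in 69.8% of cases (exact 95% interval 55.7 to 81.7) and the 420 distal sites in 88.1% (84.6 to 91). Their median fold enrichment was 10.7 and 24.9 in replicates 1 and 2, against 8.60 and 21.2 at distal sites, and their peaks were wider, with medians of 441 and 660 bp against 377 and 531 bp. GC content was 58.5% and 50.2%. CTCF had the same order for the motif, at 52.2% of 1717 promoter sites and 65.7% of 9969 distal sites, but its promoter and distal peaks had nearly the same width, 269 and 402 bp against 265 and 408 bp. Width by context was not tested.

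The 10 strongest p53 sites all held the p53 motif. They were at the promoters of CDKN1A, which encodes the cell cycle inhibitor p21, of RPS27L, a ribosomal protein-like p53 target, and of MDM2, and at 7 intergenic positions. The site with the smallest sum of ranks lay 46447 bp from the TSS of IER5 (chr1:181103837-181104849), with a fold enrichment of 39.1 in replicate 1 and 74.5 in replicate 2. The CDKN1A promoter site (chr6:36643811-36644622), 7 bp from a TSS, had 26.1 and 76.8, the latter the highest fold of any kept p53 peak. The MDM2 site (chr12:69202282-69203200), 33 bp from a TSS, had 29.2 and 65.1 and also held an AP-1 motif. The site nearest to PAPPA, a protease that releases insulin-like growth factors, was 209498 bp from its TSS and had 27.5 and 48.5. The others were nearest to MAP2K6, PLXDC1, GML, SARAF, a regulator of store-operated calcium entry, and the gene ENSG00000284188, at 4595 to 296417 bp.

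The 10 strongest CTCF sites had folds of 8.33 to 30.9 in replicate 1 and 15.3 to 44 in replicate 2, ranges that overlap those of the p53 sites (17.6 to 39.5 and 33.3 to 76.8), and held the CTCF motif in 5 cases. A site 60 bp from the TSS of CEACAM7, a cell adhesion gene (chr19:42210533-42211520), had folds of 28.5 and 44, the latter the highest of the kept CTCF peaks, and held no motif match. A site at the TMEM141 promoter (chr9:139686087-139686719) had 30.9 and 40.9 and the motif shown above. A site in an intron of RPTOR, a subunit of the mTORC1 kinase complex, had 15.9 and 20.5. Sites near GPRIN2, KDM3B, a histone demethylase, and NFASC, a cell adhesion molecule, held no motif match either, and those near FMN2, ENAH, PAK6 and RP11-685N3.1 did. Of the 10 sites, 3 were at promoters, 5 intergenic and 2 in introns.

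The established p53 targets were examined gene by gene from 3 lists of 28 genes in all. A p53 site was found within 100 kb of a TSS of 19 of them and within 10 kb of 18, where 5.20% and 1.01% of 20162 protein-coding genes had one. Of the 18 sites, 14 were at promoters and 14 held the p53 motif. Of the cell cycle and feedback genes 8 of 10 had a site within 10 kb, of the death and survival genes 6 of 9, and of the repair and metabolism genes 4 of 9. The gene lists are textbook targets of p53, so their count describes the libraries and is no result about G12V cells.

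Among the cell cycle genes, GADD45A, a stress sensor, had a site 1102 bp from a TSS with folds of 12.3 and 34.7, and ZMAT3, an RNA-binding growth suppressor, one at 1377 bp with 12.8 and 27.8. PLK3, a stress-responsive kinase, had 23.5 and 40.0 at 439 bp and E2F7, a repressor of E2F targets, 11.2 and 27.7 at 505 bp, and neither site held the motif. CCNG1, encoding cyclin G1, and BTG2, an antiproliferative gene, had weaker sites, with 5.95 and 18.0 and with 5.95 and 15. The phosphatase gene PPM1D and the 14-3-3 sigma gene SFN had no p53 site of both replicates within 100 kb.

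Among the death genes, BAX and BBC3 (PUMA), both of the mitochondrial route, had promoter sites with folds of 17.4 and 45.7 and of 12.8 and 33.1. FAS and TNFRSF10B, both death receptors, had 12.8 and 29.9 and 17.9 and 26.7. AEN, an apoptosis-enhancing nuclease, had 20.4 and 35.2. PHLDA3, an inhibitor of AKT, had 31.0 and 26.0 at 28 bp from a TSS, the higher fold being in replicate 1, and no motif match. PMAIP1, TP53INP1 and TP53I3 had none within 100 kb.
BAX (p53, chr19:49458450-49458509, plus strand): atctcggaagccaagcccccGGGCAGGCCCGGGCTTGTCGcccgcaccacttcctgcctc
GADD45A (p53, chr1:68152438-68152497, plus strand): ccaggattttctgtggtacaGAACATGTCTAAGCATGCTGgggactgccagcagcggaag

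Both stretches are shown as response elements in which the match is imperfect, with 2 mismatches at the BAX promoter and 1 in an intron of GADD45A. Among the repair and metabolism genes, DDB2, a sensor of ultraviolet damage, had a promoter site with folds of 7.29 and 35.1, and RRM2B, a ribonucleotide reductase subunit, an intronic one with 16.8 and 32.5. POLH, a translesion polymerase, had 8.18 and 17.9 and the cytokine gene GDF15 14.1 and 28.7. SESN1, a sestrin, was reached only at 95424 bp, and XPC, SESN2, TIGAR and FDXR had no site within 100 kb. With the peaks of either replicate all 28 genes had one, where 24.6% of all protein-coding genes did, so the 9 genes without a site had a peak that the overlap rule did not keep, and were not shown to be unbound.

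CTCF was found around the same genes about as often as around genes in general. A CTCF site lay within 100 kb of 24 of the 28 p53 targets and within 10 kb of 10, where 71.9% and 27.3% of protein-coding genes had one (91.1% within 100 kb with the peaks of either replicate). A CTCF site within 1 kb was found for 3 of the 28, PPM1D at 708 bp, BBC3 at 580 bp and TP53I3 at 21 bp, where 9.62% of protein-coding genes had one. Of 15 insulator and domain-border genes, among them the imprinted IGF2, H19 and MEG3, the HOX genes and MYC, 12 had a CTCF site within 100 kb and 5 within 10 kb, near the shares of 71.9% and 27.3% over all protein-coding genes. A p53 site was within 100 kb of 1 of them, at 56705 bp from MYC, with folds of 18.6 and 16.8. Of 8 basal epithelial genes, which mark the lineage of the cell line, 6 had a CTCF site within 100 kb and none a p53 site. Of 6 luminal and mesenchymal genes, 4 and none did. With 5.20% of protein-coding genes within 100 kb of a p53 site, these lists are too short to tell none from the background. The median distance from these gene lists to a p53 site was 283 to 95424 bp for the p53 target lists and 1621100 to 4176930 bp for the other lists, against 1769810 bp over all protein-coding genes.

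p53 sites were spread thinly and CTCF sites in clusters. Neighbouring p53 summits were a median of 3.89 Mb apart and CTCF summits 88.1 kb. Because this gap follows from the number of sites, the median was divided by the mean gap, which gave 0.64 in both p53 libraries and 0.35 in both CTCF libraries (difference 0.29; exact two-sided permutation test, p = 0.333, adjusted p = 0.433). The difference was 0.19 when CTCF replicate 1 was left out. The coefficient of variation of the gaps was 1.23 for p53 and 2.56 for CTCF. The 473 strongest CTCF sites, as many as p53 had, gave a ratio of 0.28 and a coefficient of variation of 1.73, so CTCF had the lower ratio at equal numbers of sites too.

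At the shortest distances the order depended on the number of sites. A neighbour within 10 kb was found for 5.71% of the peaks of both p53 libraries and for 22.0% and 21.6% of those of the CTCF libraries (difference -16.1 percentage points, or -25.7 without CTCF replicate 1; exact two-sided permutation test, p = 0.333, adjusted p = 0.433). Among the 473 strongest CTCF sites it was 1.27%, and when the 4 lists were first cut to equal length the difference was 4.96 percentage points, the opposite direction. Chained at 100 kb or less, 45 p53 sites formed 21 chains, none of more than 3 sites, whereas 8525 CTCF sites (73.0%) formed 2355 chains, the longest of 33 sites. These counts follow the number of sites. At equal numbers, 92 of the 473 strongest CTCF sites (19.5%) and 45 p53 sites (9.51%) had a neighbour within 100 kb.

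**Figure D4:**
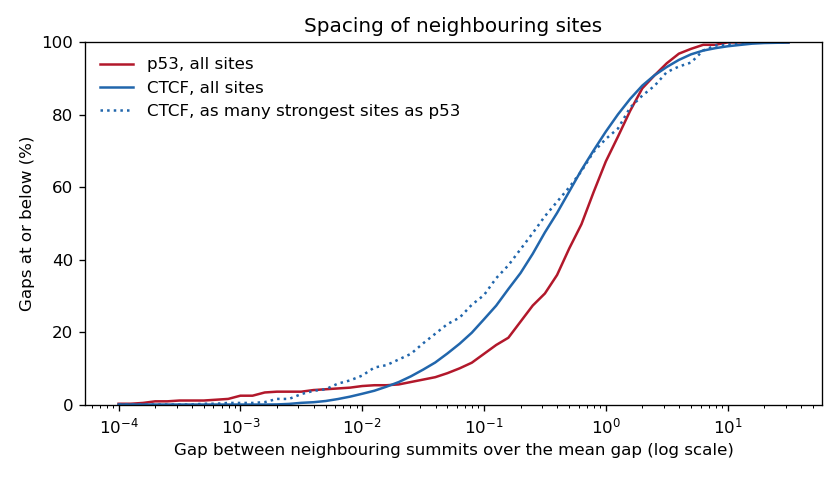
Cumulative share (%) of the gaps between neighbouring summits, each divided by the mean gap of its set (log scale), for all p53 sites (red), all CTCF sites (blue) and the 473 strongest CTCF sites (dotted blue). At its middle the p53 curve lies to the right of both CTCF curves, with medians of 0.64 for p53, 0.35 for CTCF and 0.28 for the strongest CTCF sites, and at the shortest gaps it crosses them.

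There were 3 chains of 3 p53 sites. At CDKN1A, sites 9199 bp from a TSS, at the promoter and 788 bp from a TSS spanned 10055 bp, with folds of 12.7 and 36, of 26.1 and 76.8 and of 8.27 and 33.0. The first 2 held the motif, and no CTCF site lay within the chain. The CTCF site nearest to a CDKN1A TSS was in an exon at 1890 bp (chr6:36648253-36648640), with folds of 9.94 and 17.5 and no motif match. The second chain spanned 11092 bp in introns, 145352 bp or more from the nearest TSS, that of CCNG2, a cyclin G gene. Its sites had folds of 15.8 and 37.1, 7.66 and 18.1 and 10.2 and 35.7. The third spanned 1670 bp on chr21, 1163594 bp or more from the TSS of TPTE. Its 3 sites had folds of only 1.49 to 2.08 in either library and no motif, and they were the only p53 sites under 3-fold in both lists.

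Along the chromosomes both factors were densest on chromosome 19, with 0.340 p53 and 10.8 CTCF sites per Mb. p53 was sparsest on chromosome 18 (0.0938 per Mb) and CTCF on chromosome 4 (1.63 per Mb). Chromosome 4, 6.56% of the sequenced genome, held 6.55% of p53 sites (exact 95% interval 4.50 to 9.17) and 2.61% of CTCF sites, the widest difference in this direction. Chromosome 11, 4.59% of the sequenced genome, held 3.81% (2.27 to 5.95) and 6.12%, the widest in the other. Both p53 intervals held the share of the sequenced genome. The cells' copy number was not used here, and neither factor had a site on chromosome Y.

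The p53 sites lay about as far from CTCF sites as positions 10 kb beside them, except at short distances. The median distance from a p53 summit to the nearest CTCF summit was 71128 bp, and 71708 and 73430 bp after all p53 sites were moved by 10 kb to the right or left. Within 10 kb of a CTCF summit lay 69 of 473 p53 sites (14.6%), and 61 and 55 of the moved ones. Within 1 kb lay 13 (2.75%), and 5 of the moved ones in both directions. A move of 10 kb is short beside a median of this size and can change it little. After moves of 100 kb to the right and left the medians were 76839 and 84209 bp. Within 10 kb of a CTCF summit then lay 50 and 43 sites. These differences were not tested. Promoter p53 sites were nearer to CTCF (median 38617 bp, n = 53) than distal ones (75811 bp, n = 420), and so were the same sites after the move of 10 kb (36535 and 75160 bp). From the other side, CTCF summits were a median of 1.71 Mb from the nearest p53 summit, which follows from the small number of p53 sites.

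**Figure D5:**
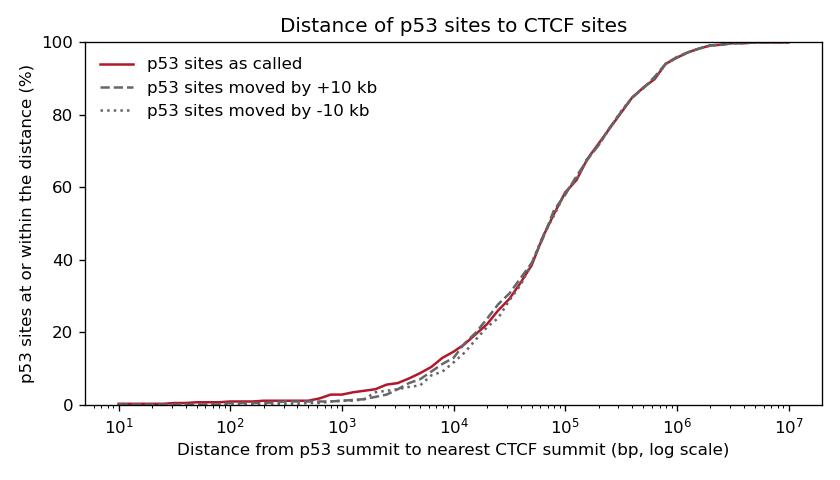
Cumulative share (%) of the 473 p53 sites at or within a given distance (bp, log scale) of the nearest CTCF summit in G12V cells, as called (red) and after a move of 10 kb to the right (dashed) or left (dotted). The 3 curves run together with medians of 71128, 71708 and 73430 bp, and part only below about 10 kb, where 13 sites lay within 1 kb as called and 5 after either move.

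A p53 site overlapped a CTCF site in 8 of 473 cases (1.69%, exact 95% interval 0.733 to 3.31). The moved sites overlapped in 4 (0.846%) and 2 cases (0.423%) at 10 kb and in 1 and 2 at 100 kb. By library, 1.27% and 1.69% of the peaks of p53 replicates 1 and 2 overlapped a CTCF site, 0.846% of each after the move, and 0.0597% and 0.0599% of the CTCF peaks overlapped a p53 site. In MCF10A cells 2 of 816 p53 sites overlapped a CTCF site. The moved G12V shares rest on few sites. Their exact 95% intervals were 0.231 to 2.15 and 0.0512 to 1.52 at 10 kb to the right and left. At 100 kb they were 0.00535 to 1.17 and 0.0512 to 1.52. All of them overlap the interval of the sites as called, and all cover counting error over sites alone. With all peaks of each list 83 of 2623 p53 sites overlapped a CTCF site and 22 after the move to the right. Without p53 replicate 1 the counts were 46 and 12 of 2619, and without CTCF replicate 1 they were 19 and 8 of 473. The overlap as called was above that of the moved sites in these sets. It was nearly equal when replicate peaks of a factor had to overlap by 50% of both to be kept (5 and 4 of 428). In that setting p53 and CTCF sites still had to overlap by only 1 bp. In lists of equal length neither had any. The difference was not tested. Without the 3 chr21 sites of low fold, which held 2 of the 8, the share was 1.28% (6 of 470).

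The 8 shared sites were distal, and 6 held the p53 motif, in introns of NTPCR and LGR6 and between genes near GML, H6PD, KCNK18 and THNSL2. The site nearest to H6PD, an enzyme of the endoplasmic reticulum, had p53 folds of 20.6 and 47.5 and CTCF folds of 8.59 and 20.6, with summits 774 bp apart. That nearest to GML had 27.9 and 50.6 for p53 and 6.48 and 8.21 for CTCF, with summits 608 bp apart. At NTPCR, a nucleoside triphosphatase, the summits were 9 bp apart, with 5.03 and 24.5 for p53 and 4.31 and 4.88 for CTCF. At LGR6, a receptor of R-spondins, they were 42 bp apart, with 5.30 and 18.4 and with 6.24 and 8.72. KCNK18, a potassium channel gene, had 5.29 and 12.4 for p53 and 12.2 and 18.4 for CTCF. The other 2 overlapped the low-fold sites on chr21, where CTCF had 1.61 and 3.92. The median p53 fold of the 8 was 5.29 and 15.4, against 8.72 and 21.7 at the other 465 p53 sites, and their GC content was 67.3% against 50.8%.

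Both motifs lay in 1 stretch under 300 bp at the site nearest to THNSL2, a threonine synthase-like gene, 9053 bp from its TSS. p53 had folds of 6.64 and 10.7 there and CTCF 10.4 and 15, with summits 87 bp apart and the motif centres 109 bp apart. The stretch is given to show both elements in capitals, the CTCF core first and the p53 element second. Among the shared sites those nearest to H6PD and KCNK18 held both motifs as well.
THNSL2 (both motifs, chr2:88491146-88491300, plus strand): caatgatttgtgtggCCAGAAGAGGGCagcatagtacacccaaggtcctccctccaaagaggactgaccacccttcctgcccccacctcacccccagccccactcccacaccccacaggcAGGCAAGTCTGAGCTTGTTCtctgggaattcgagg

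CTCF sites came between p53 sites and genes about as often as between the moved positions and genes. A CTCF summit lay between a p53 summit and its nearest TSS for 86 of 473 sites (18.2%, exact 95% interval 14.8 to 22.0), and for 94 and 81 after the moves by 10 kb. These 86 were all distal and further from their TSS, at a median of 88304.5 bp, than the others, at 14636 bp. A move of 10 kb is short beside the distance of the 86 and could change their number little. A TSS on the far side of a CTCF site is here a matter of distance alone, and no contact was measured.

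The intervals between neighbouring CTCF sites that hold the motif were sorted by the orientation of the 2 motifs. Convergent intervals made up 25.6% of their total length, divergent 24.8% and tandem 49.6%. Of 468 p53 sites within such intervals, 147 (31.4%) lay in convergent, 92 (19.7%) in divergent and 229 (48.9%) in tandem intervals. After the move by 10 kb the shares were 30.6%, 20.1% and 49.4%. The intervals that held p53 sites had a median length of 619482 bp, so this move could change the shares little. After a move of 100 kb to the right they were 29.6%, 23.2% and 47.1%. The differences were not tested. Intervals are counted from called sites and not from measured loops.

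Whether any of these contrasts differed in G12V from that in the parental MCF10A cells was tested by permuting the cell type within each factor. MCF10A had 816 p53 and 10935 CTCF sites by the same rule. None of the 13 measures reached a p of 0.05 in this exact two-sided permutation test over 36 assignments, which cannot give less than 0.0556, and 6 of them stood at that value (adjusted p = 0.12). These 6 were TSS distance, promoter, exon and intron share, median over mean gap and GC content. All follow from peak positions, which the overlap rule makes nearly the same in both replicates. Reaching the smallest p therefore says little about the spread between cultures. In MCF10A p53 peaks were 26641 bp from a TSS and CTCF peaks 10210 bp on average over libraries, a difference of 16431 bp against 9921 bp in G12V. The p53 promoter share was 7.53% in MCF10A and 11.2% in G12V, beside CTCF shares of 15.5% and 14.7%. The p53 share with an AP-1 motif was 4.29% and 3.43% in the MCF10A libraries, below both G12V values, and it was not among the 13 measures. The number of p53 sites of both replicates was 473 in G12V, where the shortest list limited it, and 816 in MCF10A, so that the sets differ in depth as well.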

How the data were processed

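ChIP-seq peak lists of p53 and CTCF in G12V cells were used, 2 replicates each, with the 4 MCF10A lists for 1 test. The authors aligned unique reads to hg19 with Bowtie and called peaks with MACS at default settings against input. The deposited lists were called per library, whereas the study pooled replicates for its own analysis. Per the file contents, the deposited columns hold a score (a scaled −log10 q), the fold enrichment (a ratio of pileup to background), the −log10 p and −log10 q, and the summit. They were used to describe and rank peaks. Members and gene lists were chosen with earlier results of these data known.

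Genes came from GENCODE release 44 mapped to GRCh37 and sequence from that assembly (Python 3.11.15, numpy 2.4.6, pandas 2.3.3, scipy 1.17.1, pysam 0.24.0, samtools 1.23.1). Overlapping kept peaks were merged, with the summit of the stronger peak. Calling depth was estimated from fold and −log10 p, which share a pileup and a background, for a mappable genome of 2.7 Gb. The scripts were tested on simulated data. Named sites were, per factor, the 10 with the smallest rank sum, every p53 site at a CTCF site, the 3 longest p53 chains and the gene lists, each site named by the nearest protein-coding TSS. A list misses what fell below its threshold (q of 5%), so a missing site was not detected and is not shown to be unbound. Alternatives covered the overlap rule, threshold, list length, annotation, windows, motif mismatches, each replicate left out and the pairing of replicates. With a replicate left out, the whole list of the other replicate of that factor was used.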

Additional observations from a re-analysis of the deposited data

How the results depend on the processing

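Of 118 differences between the factors recomputed under the alternatives, 113 kept their direction, 4 reversed and 1, the share at the other factor in lists of equal length, was 0.0 for both factors (a difference of 0.0). The design's smallest p lies above the threshold throughout, so no call could change. Those that reversed were the neighbour share in lists of equal length (4.96 percentage points), the median width without p53 replicate 1 (-20.0 bp), the width above the narrowest peak without p53 replicate 2 (-23.0 bp) and the intron share without CTCF replicate 1 (-0.49 percentage points). With a replicate left out, the overlap rule no longer applied to that factor. The cause of the reversals was not tested. The number of p53 sites was 2623 with all peaks and 477 to 2619 with a replicate left out. That of CTCF sites was 27957 with all peaks, 153 in lists of equal length and 12004 to 27678 with a replicate left out. The share of p53 sites at CTCF sites was 3.16% with all peaks (0.839% after the move by 10 kb). It was 1.17% when replicate peaks of a factor had to overlap by 50% of both. It was 1.35% at a −log10 q of 5 or more, 0.0% in lists of equal length and 2.75% for summits within 1000 bp. With CTCF peaks of either replicate it was 4.02%, and with a replicate left out 1.26% to 4.02% (4.02% without CTCF replicate 1). Without sites of fold under 3 in both lists, an alternative chosen after seeing the data, it was 1.28%. With a replicate left out, the difference in width ranged from -20.0 to 195 bp, in width above the narrowest peak from -23.0 to 166.5 bp, in intron share from -0.49 to 6.17 percentage points, in TSS distance between 7231 and 10650 bp and in own motif share between 8.36 and 28.6 percentage points. It ranged from -7.93 to -2.84 in GC content, from -5.42 to -1.47 in promoter share and from 2.80 to 5.73 in intergenic share (percentage points). Some counts of genes with a site within 100 kb moved by over 1.5 times. With all peaks the p53 count rose from 5 to 9 for repair and metabolism genes. It rose from 1 to 3 for insulator and domain-border genes and from 0 to 2 for both the basal and the luminal and mesenchymal lists. The other p53 counts and all CTCF counts stayed within 1.5 times. In lists of equal length the CTCF counts of the p53 target lists moved, for example from 7 to 1 for cell cycle genes, and their p53 counts did not.

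The replicate numbers are shared by the factors, but the labels do not say that a number marks a shared culture or day, and the factors share too few sites to compare deviations. With replicates paired by number, every difference of means is the same by arithmetic (123 bp for width, for example), so pairing could not change it. The exact paired permutation test gave a p of 0.5, the smallest that 2 pairs allow.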
